A study of Mus musculus with 12 samples.

Results

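FH, fumarate hydratase, is the mitochondrial enzyme that makes malate out of fumarate, and the mouse gene is Fh1. The study asks how FH acts in fibrosis of the kidney, and the libraries described here set FH-silenced tubular cells against control cells in the absence of the fibrotic cytokine TGF-β1. The cells were mTECs, a mouse renal tubular epithelial line, either FH-silenced (KD, 3 libraries) or control (NC, 3 libraries), and neither group received TGF-β1. Of the 12 libraries of the series, these 6 are the ones described here, and the other 6, KD and NC cells that received TGF-β1, entered the same fit. Neither the silencing reagent nor any clone is named in the labels. Nothing in them says that replicates came from separate cultures, so a p-value here reflects the spread among libraries, which may be technical. Of 15802 Entrez genes listed in both deposited tables, 11707 had enough counts to be tested, and all values below are for KD relative to NC.

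When fumarate hydratase is lost, fumarate builds up. Fumarate can react with cysteines of proteins such as KEAP1, the inhibitor of the antioxidant factor NRF2, and can compete with 2-oxoglutarate at dioxygenases, among them the prolyl hydroxylases that mark HIF subunits for destruction. In people, germline loss of the gene predisposes to renal cancer. These facts are background, and none of them was measured here, since the tables hold transcripts of protein-coding genes only.

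The 6 libraries held 17957750 to 18462872 estimated counts, and the biological coefficient of variation over all 12 was 4.6%. On the first principal component of the 6 (33.8% of the variance), NC replicate 1 stood at 22.7 and the other 5 libraries between -9.9 and 2.1. The KD libraries lay between 6.77 and 9.33 on the second component (23.4%), and the NC libraries between -13.0 and 1.02. The NC libraries differed most in AT-rich transcripts. In the quartile of genes with the lowest GC share of the mRNA, the median deviation from the mean of the 6 libraries was -0.038, -0.019 and 0.018 (log2) in KD, against 0.098, 0.005 and -0.077 in NC. Where a gene or transcript named below by rule lost its call without NC replicate 1, the value without it is given. Markers of the tubular epithelium were plainly present, with 12 of 13 listed genes in the tables at a summed 5659 to 5830 TPM in KD, against 5288 to 5419 TPM in NC. Markers of the differentiated proximal tubule summed to 7.57 to 8.05 TPM in KD, against 7.56 to 7.79 TPM in NC. Fibroblast markers stayed at 0.34 to 0.41 TPM in KD, against 0.24 to 0.40 TPM in NC, and endothelial markers at 0.38 to 0.50 TPM in KD, against 0.39 to 0.62 TPM in NC. In bulk RNA, fewer cells with a transcript and less of it per cell cannot be told apart.

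The targeted gene was checked first. Levels are given as CPM, the count of a gene per library scaled to a common total with TMM factors, and changes as log2 of KD over NC with the standard error (SE) of the fit. Fh1 had 28.6, 31.3 and 29.7 CPM in KD, against 51.4, 53.9 and 53.5 CPM in NC (log2 change -0.83, SE 0.045, adjusted p = 6.47e-07), and the 2 groups did not overlap. Akap12, a scaffold of protein kinase A, had 669.9, 665 and 645 CPM in KD, against 544, 533 and 563 CPM in NC (log2 change 0.27, SE 0.029, adjusted p = 0.00013), higher in every KD library than in any NC library. Each gene has 1 transcript tested, NM_010209 for Fh1 and NM_031185 for Akap12, and both transcripts were called as well. Transcript levels do not tell how much fumarate hydratase protein or activity was left, and neither was measured.

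Silencing in basal cells moved many genes by small amounts. By edgeR's quasi-likelihood test with Benjamini-Hochberg adjustment over all tested genes, 429 genes (3.66%) had an adjusted p under 0.05 and are called here, 169 of them higher (1.44%) and 260 lower (2.22%). Their median fold was 1.17. At an unadjusted p under 0.05 there were 2024 genes (17.3%), and 22.7% of all tested genes had 3 KD values that did not overlap the 3 NC values. The share called grew with the level of the gene: 0.819% of genes under 1 TPM, 0.968% at 1 to 5 TPM, 1.90% at 5 to 10 TPM, 4.22% at 10 to 50 TPM, 5.42% at 50 to 100 TPM, 6.02% at 100 to 500 TPM and 6.14% at 500 TPM or more. Whether scarce genes changed less or were harder to call was not tested. The count rested on single libraries: it was 212, 219 and 270 without KD replicate 1, 2 and 3, and 468, 272 and 641 without NC replicate 1, 2 and 3. With only the 6 basal libraries in the fit it was 151, of which 149 are among the 429. With limma on log2(TPM + 1) it was 327, of which 53.8% were higher, against 39.4% in the fit as reported.

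**Figure D1:**
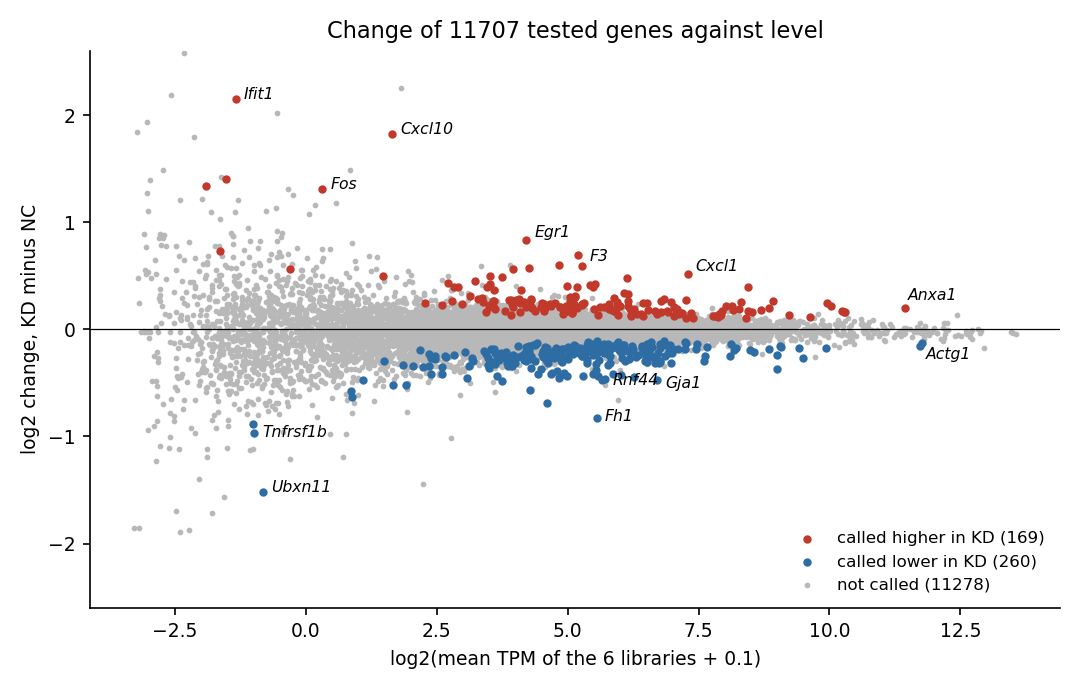
The log2 change (KD minus NC, y axis) of each of 11707 tested genes is plotted against its level (log2 of the mean TPM of the 6 libraries plus 0.1, x axis), with called genes in red (169 higher) and blue (260 lower). Most called genes lie within a log2 change of 0.5 of no change and above about 10 TPM, and 8 genes with no call lie beyond the y axis.

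Past 2-fold were 6 called genes, and each of them was scarce. Ifit1, an interferon-induced RNA-binding protein, had 16, 12 and 14 counts in KD, against 3, 3 and 3 counts in NC (log2 change 2.15, SE 0.37, adjusted p = 0.00511). Cxcl10, a chemokine for T cells that interferons and NF-κB induce, had 49, 50 and 39 counts in KD, against 15, 11 and 12 counts in NC (log2 change 1.82, SE 0.26, adjusted p = 0.00118). Every KD library lay above every NC library in both genes, at levels where a single library holds at most 50 counts. Fos, a subunit of the AP-1 factor, had 37, 40 and 32 counts in KD, against 10, 14 and 19 counts in NC (log2 change 1.31, SE 0.24, adjusted p = 0.00733). The other 3, outside the rule for named genes and given for their size alone, were Hecw2, Mfhas1 and Ubxn11. Hecw2, a ubiquitin ligase, had 23, 24 and 21 counts in KD, against 12, 7 and 6 counts in NC (adjusted p = 0.00846). Mfhas1 had 20, 17 and 15 counts in KD, against 4, 7 and 9 counts in NC (adjusted p = 0.0255). Ubxn11 had 6, 5 and 3 counts in KD, against 12, 14 and 14 counts in NC (adjusted p = 0.0312). Ubxn11 was the one of the 6 that was lower in KD. In each of the 6 genes the KD and NC values did not overlap.

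Immediate early genes are switched on within minutes of a growth or stress signal, without new protein synthesis. Of 28 tested transcription factors of this class 6 rose and 0 fell (21.4% called, against 3.66% of all tested genes). The median log2 change was 0.10, against -0.015 over all tested genes, and the 6 are Egr1, Btg2, Klf6, Fos, Junb and Jun. Over 12 alternative settings 4 to 8 of the class rose, and 5 did without NC replicate 1. Egr1, Btg2, Klf6 and Fos kept their calls in each setting. Egr1, a zinc finger factor downstream of ERK signalling, had 44.1, 44.0 and 42.0 CPM in KD, against 25.1, 22.1 and 25.8 CPM in NC (log2 change 0.83, SE 0.06, adjusted p = 4.61e-06). The lowest KD library was well above the highest NC library. Btg2, an antiproliferative cofactor that p53 also induces, had 97.5, 98.0 and 97.8 CPM in KD, against 71.3, 74.4 and 72.8 CPM in NC (log2 change 0.42, SE 0.035, adjusted p = 1.31e-05). Klf6, a Krüppel-like factor of injured epithelium, had 247, 251 and 239 CPM in KD, against 213, 211 and 199.5 CPM in NC (log2 change 0.24, SE 0.032, adjusted p = 0.000657). In both genes each KD library exceeded each NC library. Among regulators that act on MAP kinases, 22 were tested, 3 rose and 1 fell (18.2% called). Dusp5, a nuclear phosphatase of ERK, had 78.1, 74.5 and 79.4 CPM in KD, against 64.2, 62.3 and 67.1 CPM in NC (log2 change 0.26, SE 0.056, adjusted p = 0.0183). Errfi1, a feedback inhibitor of the EGF receptor, had a log2 change of 0.17 (adjusted p = 0.0113) and Phlda1 one of 0.17 (adjusted p = 0.0263). Dusp4, another ERK phosphatase, fell by 0.14 on the log2 scale (adjusted p = 0.0458). These 4 calls were the less stable ones, lost in fits without 1 library: Dusp5 in 3 (adjusted p up to 0.0827), Errfi1 in 2 (adjusted p up to 0.0632), Phlda1 in 3 (adjusted p up to 0.119) and Dusp4 in 6 (adjusted p up to 0.194). Without NC replicate 1 the log2 change was -0.15 for Dusp4 (adjusted p = 0.0617). Hbegf, a ligand of the EGF receptor shed by injured tubules, had 172, 176 and 172 CPM in KD, against 138, 146 and 142 CPM in NC (log2 change 0.29, SE 0.042, adjusted p = 0.00161). It was the 1 called gene of 11 tested EGF receptors and ligands (9.09%).

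Among chemokines, cytokines and genes of the NF-κB pathway every called list member was higher in KD. Of 9 tested chemokines 3 rose and 0 fell (33.3% called, against 3.66% of all tested genes), and 18 of 27 listed chemokines are in both tables, so these 9 are not the whole family. Cxcl1, which draws neutrophils through CXCR2, had 79.1, 78.6 and 79.6 CPM in KD, against 55.5, 57.5 and 53.2 CPM in NC (log2 change 0.51, SE 0.054, adjusted p = 0.000117). The 3 KD libraries were within 1 CPM of each other and well above the NC libraries. Its paralog Cxcl2 had 6.73, 6.93 and 6.92 CPM in KD, against 4.76, 4.94 and 4.83 CPM in NC (log2 change 0.50, SE 0.1, adjusted p = 0.0116). Ccl2, the monocyte chemokine, had 6.35, 5.52 and 5.64 CPM in KD, against 2.86, 4.34 and 4.34 CPM in NC, which did not overlap but missed the threshold (log2 change 0.60, SE 0.17, adjusted p = 0.0801). Promoters of the 3 chemokines that rose are shown because they carry letters of the kind NF-κB dimers read. The stretches come from RefSeq promoters of GRCm38.p6, with matches of GGGNNNTTCC on either strand in capitals, overlapping matches merged: Cxcl1 at chr5:90891131-90891209 (plus strand), Cxcl2 at chr5:90903777-90903855 (plus strand) and Cxcl10 at chr5:92348959-92349073 (minus strand).
Cxcl1: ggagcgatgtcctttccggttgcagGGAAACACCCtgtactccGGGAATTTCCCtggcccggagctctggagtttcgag
Cxcl2: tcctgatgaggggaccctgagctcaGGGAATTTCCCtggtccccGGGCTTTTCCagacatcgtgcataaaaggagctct
Cxcl10: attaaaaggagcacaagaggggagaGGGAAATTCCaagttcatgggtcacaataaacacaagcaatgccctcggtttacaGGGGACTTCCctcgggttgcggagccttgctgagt
There are 3 matches each in Cxcl1 and Cxcl2 and 2 in Cxcl10. Over the windows from 250 bases before to 50 bases after a start, 5.56% of all 32851 promoters, 6.25% of 12033 promoters of tested genes and 11.9% of 176 promoters of genes called higher held at least 1 match. A match describes the letters and is no measure of binding. The 3 genes were picked for their calls and are among the genes called higher. Promoters of chemokines without a call are not shown. The shares are thus a description, and a part of NF-κB in the changes was not tested.

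Of 38 NF-κB subunits, inhibitors and adaptors 3 rose and 0 fell (7.89% called, against 3.66% of all tested genes). Tnfaip3, the deubiquitinase A20 that brakes the pathway and is itself induced by it, had 137, 142 and 139 CPM in KD, against 104, 107 and 107 CPM in NC (log2 change 0.39, SE 0.036, adjusted p = 2.68e-05). Traf1, an adaptor of TNF receptors, had 21.3, 22.6 and 22.3 CPM in KD, against 13.4, 15.9 and 15.6 CPM in NC (log2 change 0.56, SE 0.078, adjusted p = 0.0011). Relb, a subunit of the alternative arm, had 25.4, 25.2 and 25.1 CPM in KD, against 16.9, 22.3 and 19.4 CPM in NC (log2 change 0.37, SE 0.078, adjusted p = 0.0179). The KD and NC libraries did not overlap in any of these 3 genes. Nfkbia, which encodes IκBα, had a log2 change of 0.24 (adjusted p = 0.0651), and Nfkb1 one of 0.10 (adjusted p = 0.116), and neither passed. Of 19 interleukins and cytokines 2 rose (10.5% called). Csf1, the growth factor of macrophages, had 334, 337 and 330.4 CPM in KD, against 278, 277 and 284 CPM in NC (log2 change 0.25, SE 0.025, adjusted p = 4.28e-05). Csf3, that of granulocytes, had 18.2, 16.5 and 17.6 CPM in KD, against 14.3, 14.9 and 13.9 CPM in NC (log2 change 0.28, SE 0.067, adjusted p = 0.0335). The groups were apart in both, by a wider margin in Csf1. Tnfrsf1b, a TNF receptor at few counts named here after its values were seen, fell, with 8, 13 and 11 counts in KD, against 23, 21 and 18 counts in NC (log2 change -0.97, SE 0.24, adjusted p = 0.0431). Ptgs2, the inducible cyclooxygenase, likewise singled out afterwards, had 109, 109.7 and 123 CPM in KD, against 104, 78.9 and 78.2 CPM in NC (log2 change 0.39, SE 0.085, adjusted p = 0.0192). Its lowest KD library was close to NC replicate 1, the highest of the NC libraries. Of 27 interferon-stimulated genes Ifit1 was the 1 called (3.7%, near the 3.66% of all tested genes). Of 15 antigen presentation and 6 complement genes 0 were called by edgeR (3 and 2 at an unadjusted p under 0.05). Calls lost without 1 library were Cxcl2 in 1 (adjusted p up to 0.0554), Relb in 3 (adjusted p up to 0.0716) and Csf3 in 5 (adjusted p up to 0.144). Without NC replicate 1 the log2 change was 0.27 for Csf3 (adjusted p = 0.0653). Leukocyte markers (8 of 11 listed in the tables, 2 with enough counts to be tested) summed to 37.6 to 39.2 TPM in KD, against 39.4 to 42.3 TPM in NC. Which cells the transcripts of this paragraph came from was not tested.

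**Figure D2:**
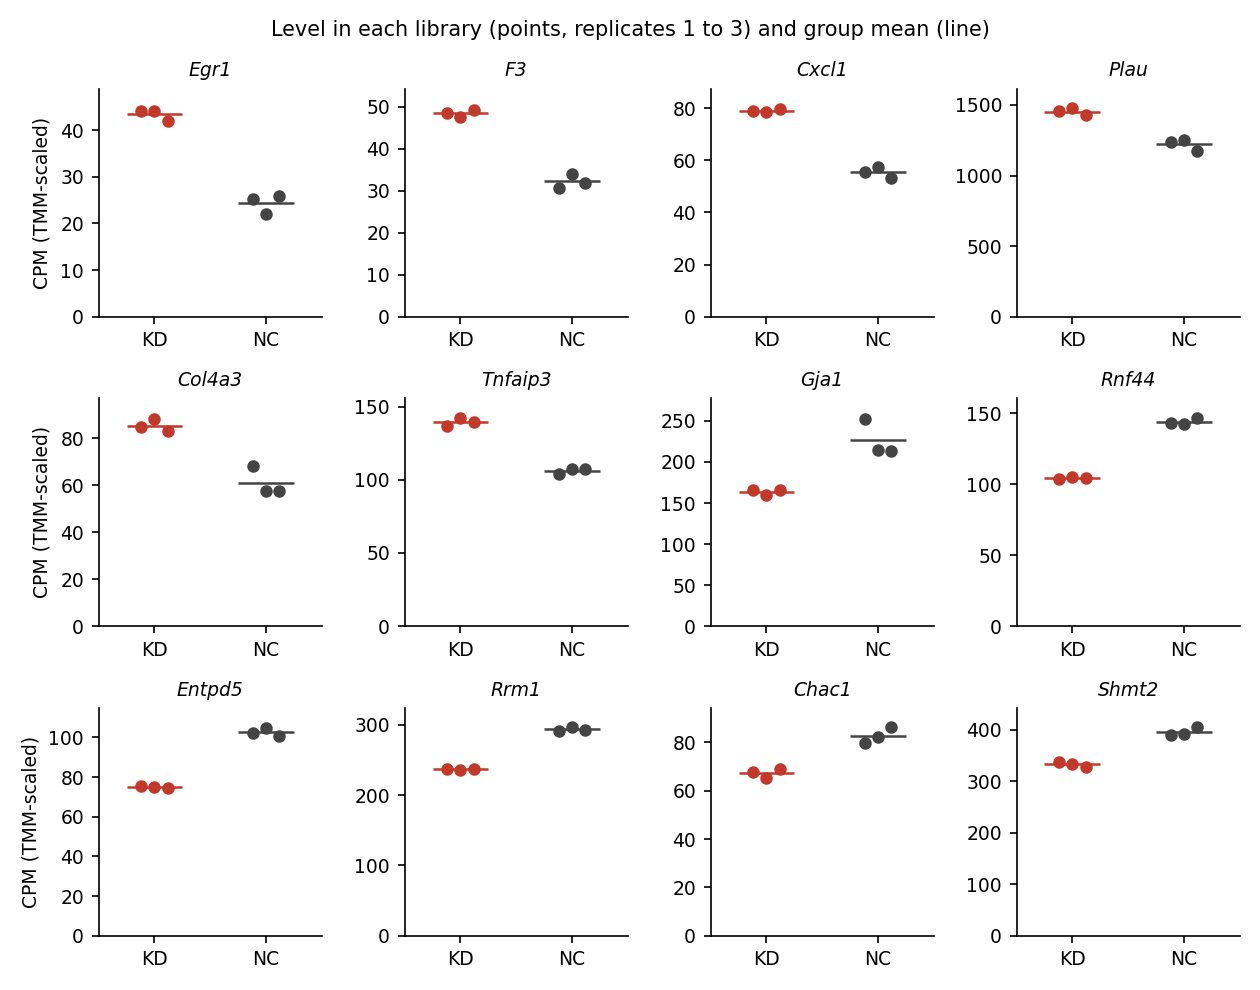
CPM (y axis from 0) of 12 called genes are shown in each of 3 KD (red, left) and 3 NC (grey, right) libraries, with a line at the group mean. In the 6 genes from Egr1 to Tnfaip3 the KD points lie above the NC points, and in the 6 from Gja1 to Shmt2 below them, without overlap.

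Among genes of clotting and fibrinolysis, and among targets of YAP and TEAD, the factors that read cell stretch, the called members were higher in KD. Of 14 tested genes of coagulation and plasminogen activation 4 rose and 0 fell (28.6% called, against 3.66% of all tested genes). F3, the tissue factor that starts clotting, had 48.5, 47.4 and 49.3 CPM in KD, against 30.7, 34.1 and 31.8 CPM in NC (log2 change 0.59, SE 0.043, adjusted p = 4.61e-06). The KD libraries stood well apart from the NC libraries. Both plasminogen activators rose too. Plau, the urokinase, had 1454, 1478 and 1426 CPM in KD, against 1238, 1254 and 1174 CPM in NC (log2 change 0.25, SE 0.028, adjusted p = 0.000197). Plat, the tissue activator, had 262, 243 and 263 CPM in KD, against 227, 236 and 229 CPM in NC (log2 change 0.15, SE 0.034, adjusted p = 0.0217). The call of Plat was lost in 2 of 6 fits without 1 library, and those of F3 and Plau in none. Of 20 CCN family and YAP-TEAD genes 4 rose and 0 fell, F3 among them. Ccn1 and Ccn2 are secreted matricellular proteins, and Ccn2 is also known as CTGF. Ccn1 had 349, 346 and 350.2 CPM in KD, against 290.4, 303 and 308 CPM in NC (log2 change 0.21, SE 0.028, adjusted p = 0.000657). Ccn2 had 689, 652 and 719 CPM in KD, against 595, 581 and 614 CPM in NC (log2 change 0.20, SE 0.034, adjusted p = 0.00462). Both were higher in every KD library. Ankrd1, a nuclear ankyrin repeat protein among the more abundant transcripts, had 1271, 1254 and 1219 CPM in KD, against 1103, 1107 and 1117 CPM in NC (log2 change 0.17, SE 0.026, adjusted p = 0.00225). Of 37 ligands, receptors, SMADs and targets of TGF-β and BMP, 2 rose, Tgfbr2 among them, and Id1 fell (8.11% called, against 3.66% of all tested genes). Tgfbr2, the type II receptor, had a log2 change of 0.13 (adjusted p = 0.0293), a call lost in 4 of 6 fits without 1 library. Id1, a direct target of BMP signals, had 33.2, 35.3 and 35.3 CPM in KD, against 41.9, 41.0 and 45.2 CPM in NC (log2 change -0.30, SE 0.047, adjusted p = 0.00252).

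Collagens were the list with the largest share of calls among those with 10 or more tested members, 8 of 18 (44.4%), of which 7 rose and 1 fell, at a median log2 change of 0.16. Type IV collagen is the network of basement membranes. It is built from trimers, of which α1α1α2 is general and α3α4α5 is that of the glomerular and some tubular basement membranes. Of its 6 chains 5 were called. Col4a3 had 84.8, 88.1 and 83.1 CPM in KD, against 67.9, 57.4 and 57.3 CPM in NC (log2 change 0.49, SE 0.055, adjusted p = 0.00019), and NC replicate 1 was the highest of the NC libraries. Col4a4 had 94.5, 90.5 and 95.7 CPM in KD, against 80.9, 75.7 and 73.8 CPM in NC (log2 change 0.28, SE 0.038, adjusted p = 0.00074). Col4a5 had 245, 234 and 257 CPM in KD, against 232, 203 and 198 CPM in NC (log2 change 0.22, SE 0.057, adjusted p = 0.0489). In these 3 chains the KD values did not overlap those of NC, with the narrowest gap in Col4a5. The general chains also rose. Col4a1 had 164, 165 and 165 CPM in KD, against 129.9, 134 and 136 CPM in NC (log2 change 0.30, SE 0.042, adjusted p = 0.0011). Col4a2 had 144, 145 and 155 CPM in KD, against 124, 119 and 117 CPM in NC (log2 change 0.31, SE 0.037, adjusted p = 0.000316). Col4a6 had a log2 change of 0.08 (adjusted p = 0.197). Col4a1 and Col4a2 share a promoter, as do Col4a3 and Col4a4. Col7a1, the anchoring fibril, rose by 0.28 (adjusted p = 0.00278) and Col18a1, the source of endostatin, by 0.14 (adjusted p = 0.0173) on the log2 scale. Col12a1, a collagen that decorates fibrils, had 19, 16.1 and 16.8 CPM in KD, against 21.6, 21.2 and 21.0 CPM in NC (log2 change -0.30, SE 0.064, adjusted p = 0.0182). Over 12 alternative settings 5 to 7 collagens rose, and 7 did without NC replicate 1.

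Other matrix genes moved one by one. The laminin chain Lama5 had 2425, 2404 and 2383 CPM in KD, against 2133, 2022 and 2183 CPM in NC (log2 change 0.19, SE 0.03, adjusted p = 0.00355). Lamc1, the γ1 chain shared by most laminins, had 84.0, 84.1 and 83.1 CPM in KD, against 96.1, 101 and 106 CPM in NC (log2 change -0.27, SE 0.049, adjusted p = 0.00663). Thbs1, thrombospondin-1, an activator of latent TGF-β, had 1275, 1286 and 1292 CPM in KD, against 1118, 1036 and 1075 CPM in NC (log2 change 0.26, SE 0.029, adjusted p = 0.00019). Tnc, tenascin-C, had a log2 change of 0.23 (adjusted p = 0.00511). Of 21 metalloproteases and their inhibitors 3 rose, Mmp24, Adam12 and Adamts1 (14.3% called, against 3.66% of all tested genes). Over 12 alternative settings 0 to 4 of them rose, and 0 did with only the 6 basal libraries. The call of Adamts1 was also lost in 3 of 6 fits without 1 library. Mmp24, a membrane-type metalloprotease, had 7.49, 8.88 and 8.67 CPM in KD, against 6.22, 5.49 and 6.02 CPM in NC (log2 change 0.50, SE 0.095, adjusted p = 0.00877). Col1a1, the fibrillar collagen of fibroblasts, was scarce, with 12, 10 and 18 counts in KD, against 8, 17 and 13 counts in NC, where the groups overlapped.

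Cytoskeletal and integrin genes were called in both directions, and the called junction genes were lower. Of 35 actin, tropomyosin and myosin genes 4 rose and 1 fell (14.3% called). Actn1, an actin crosslinker of focal adhesions, had 643, 637 and 634 CPM in KD, against 542, 539.6 and 567 CPM in NC (log2 change 0.22, SE 0.035, adjusted p = 0.00315). Cnn2, a calponin, had a log2 change of 0.17 (adjusted p = 0.00315), and Msn and Myh9 rose by 0.14 (adjusted p = 0.00754) and 0.15 (adjusted p = 0.018). Actg1, the cytoplasmic γ-actin and one of the more abundant transcripts, had 3469, 3464 and 3397 CPM in KD, against 3783, 3784 and 3939.5 CPM in NC (log2 change -0.16, SE 0.027, adjusted p = 0.00506). Counts of Actg1 and of its near-identical paralogs are split by estimation, which limits the value. Of 39 integrins and adaptors 2 rose, Tln1 and Tns3, and 3 fell, Itga2, Fermt1 and Nedd9 (12.8% called). Itga2, a collagen-binding integrin chain, had 78.9, 81.3 and 80.4 CPM in KD, against 101, 93.8 and 95.5 CPM in NC (log2 change -0.27, SE 0.044, adjusted p = 0.0036). Of 39 junction genes 0 rose and 2 fell (5.13% called, against 3.66% of all tested genes). Tjp1, the scaffold ZO-1, had 378, 380.0 and 398 CPM in KD, against 488, 450.3 and 443 CPM in NC (log2 change -0.26, SE 0.038, adjusted p = 0.00178). Cldn1, a sealing claudin, had 222, 231 and 239 CPM in KD, against 299, 258 and 248 CPM in NC (log2 change -0.22, SE 0.056, adjusted p = 0.0459). Both were highest in NC replicate 1, and without it their log2 changes were -0.21 (adjusted p = 0.000968) and -0.14 (adjusted p = 0.0487). Keratins of simple epithelium went the other way. Krt8 had 1326, 1292 and 1320.1 CPM in KD, against 1167, 1142 and 1202 CPM in NC (log2 change 0.17, SE 0.026, adjusted p = 0.0026). Krt19 had a log2 change of 0.12 (adjusted p = 0.0479), and Krt18 had 1215, 1091 and 1192 CPM in KD, against 1068, 1094 and 1106 CPM in NC, where the groups overlapped (adjusted p = 0.192). Calls lost without 1 library were Tln1 in 3 (adjusted p up to 0.0785), Tns3 in 4 (adjusted p up to 0.102), Fermt1 in 4 (adjusted p up to 0.109), Cldn1 in 4 (adjusted p up to 0.186) and Krt19 in 5 (adjusted p up to 0.175). With NC replicate 1 left out, the log2 changes were 0.12 for Tns3 (adjusted p = 0.0641) and 0.10 for Krt19 (adjusted p = 0.121).

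Among genes of kidney identity and injury the calls went in both directions. Pax2, a transcription factor of the developing and regenerating tubule, had 120.2, 117 and 118 CPM in KD, against 147, 143 and 154 CPM in NC (log2 change -0.32, SE 0.042, adjusted p = 0.000657) and was the 1 called of 13 nephron segment genes (7.69%, against 3.66% of all tested genes). Pkhd1, which encodes fibrocystin of the primary cilium and was chosen after its values were seen, had 93.8, 96.2 and 91.3 CPM in KD, against 77.9, 74.2 and 77.2 CPM in NC (log2 change 0.29, SE 0.038, adjusted p = 0.00055). Of 21 tubular injury and repair markers 4 were called, a larger share than that of all tested genes, and 3 of them rose, Hbegf, Krt8 and Krt19, and Cd24a fell by 0.19 on the log2 scale (adjusted p = 0.0357), though not without NC replicate 1 (log2 change -0.13, adjusted p = 0.0617). Havcr1, which encodes the injury marker KIM-1, had 48, 48 and 41 counts in KD, against 33, 23 and 21 counts in NC and missed the threshold (adjusted p = 0.0545). Lcn2, which encodes NGAL, had 245, 246 and 233 CPM in KD, against 244, 254 and 251 CPM in NC (adjusted p = 0.429).

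Among genes of the ATF4 response, and among enzymes that make serine and pass on its carbon, nearly every called member was lower in KD. ATF4 is the transcription factor of the integrated stress response and of amino acid shortage. Of 27 of its regulators and stress effectors 1 rose and 6 fell (25.9% called, median log2 change -0.10). Cebpg, a C/EBP partner of ATF4, had 62.8, 64.3 and 64.9 CPM in KD, against 91.0, 84.8 and 80.8 CPM in NC (log2 change -0.42, SE 0.05, adjusted p = 0.000318). Chac1, which degrades glutathione, had 67.5, 65.1 and 68.8 CPM in KD, against 79.8, 82.1 and 86.2 CPM in NC (log2 change -0.30, SE 0.039, adjusted p = 0.000644). Nupr1, a stress-induced chromatin protein, had 139, 133 and 136 CPM in KD, against 155, 168 and 168 CPM in NC (log2 change -0.26, SE 0.044, adjusted p = 0.00397). Atf5 had 94.4, 90.3 and 91.6 CPM in KD, against 109, 113 and 121 CPM in NC (log2 change -0.31, SE 0.053, adjusted p = 0.00474). In none of these 4 did the KD libraries reach the NC libraries. Trib3, a pseudokinase, fell by 0.22 (adjusted p = 0.0315) and Gdf15, a secreted stress hormone, fell by 0.18 (adjusted p = 0.0327) on the log2 scale, the call of Gdf15 being lost in 3 of 6 fits without 1 library. The member that rose was Eif2ak3, which encodes the kinase PERK, with 70.2, 65.7 and 68.3 CPM in KD, against 59.5, 58.8 and 54.3 CPM in NC (log2 change 0.24, SE 0.042, adjusted p = 0.00498). Atf4 itself had 563, 548 and 539.5 CPM in KD, against 566, 571 and 565 CPM in NC and was not called (log2 change -0.04, SE 0.031, adjusted p = 0.511). Ddit3, which encodes CHOP, had 30.5, 33.6 and 29.3 CPM in KD, against 32.0, 30.5 and 30.1 CPM in NC, where the groups overlapped (adjusted p = 0.951). Of 24 genes of serine, one-carbon and asparagine synthesis 0 rose and 4 fell (16.7% called, against 3.66% of all tested genes, median log2 change -0.11). Shmt2, the mitochondrial serine hydroxymethyltransferase, had 338, 333 and 327 CPM in KD, against 391, 393 and 406 CPM in NC (log2 change -0.25, SE 0.027, adjusted p = 0.000129). Psat1, a transaminase of serine synthesis, had 636, 630.2 and 616 CPM in KD, against 696, 693 and 708 CPM in NC (log2 change -0.16, SE 0.026, adjusted p = 0.00463). Asns, the asparagine synthetase, had a log2 change of -0.17 (adjusted p = 0.022). Phgdh, the first enzyme of serine synthesis, missed the threshold at -0.07 (adjusted p = 0.23). Of 22 amino acid transporters 0 rose and 2 fell (9.09% called). The glycine carrier Slc6a9 had 84.4, 86.1 and 90.4 CPM in KD, against 98.8, 105 and 113 CPM in NC (log2 change -0.28, SE 0.05, adjusted p = 0.00616). The leucine carrier Slc7a5 had a log2 change of -0.14 (adjusted p = 0.0217). Of 38 aminoacyl-tRNA synthetases, also regulated by ATF4, 0 were called by edgeR (3 at an unadjusted p under 0.05). Calls lost without 1 library were Asns in 4 (adjusted p up to 0.108) and Slc7a5 in 5 (adjusted p up to 0.102), and between 1 and 4 of the serine list fell over the 12 alternative settings.

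**Figure D3:**
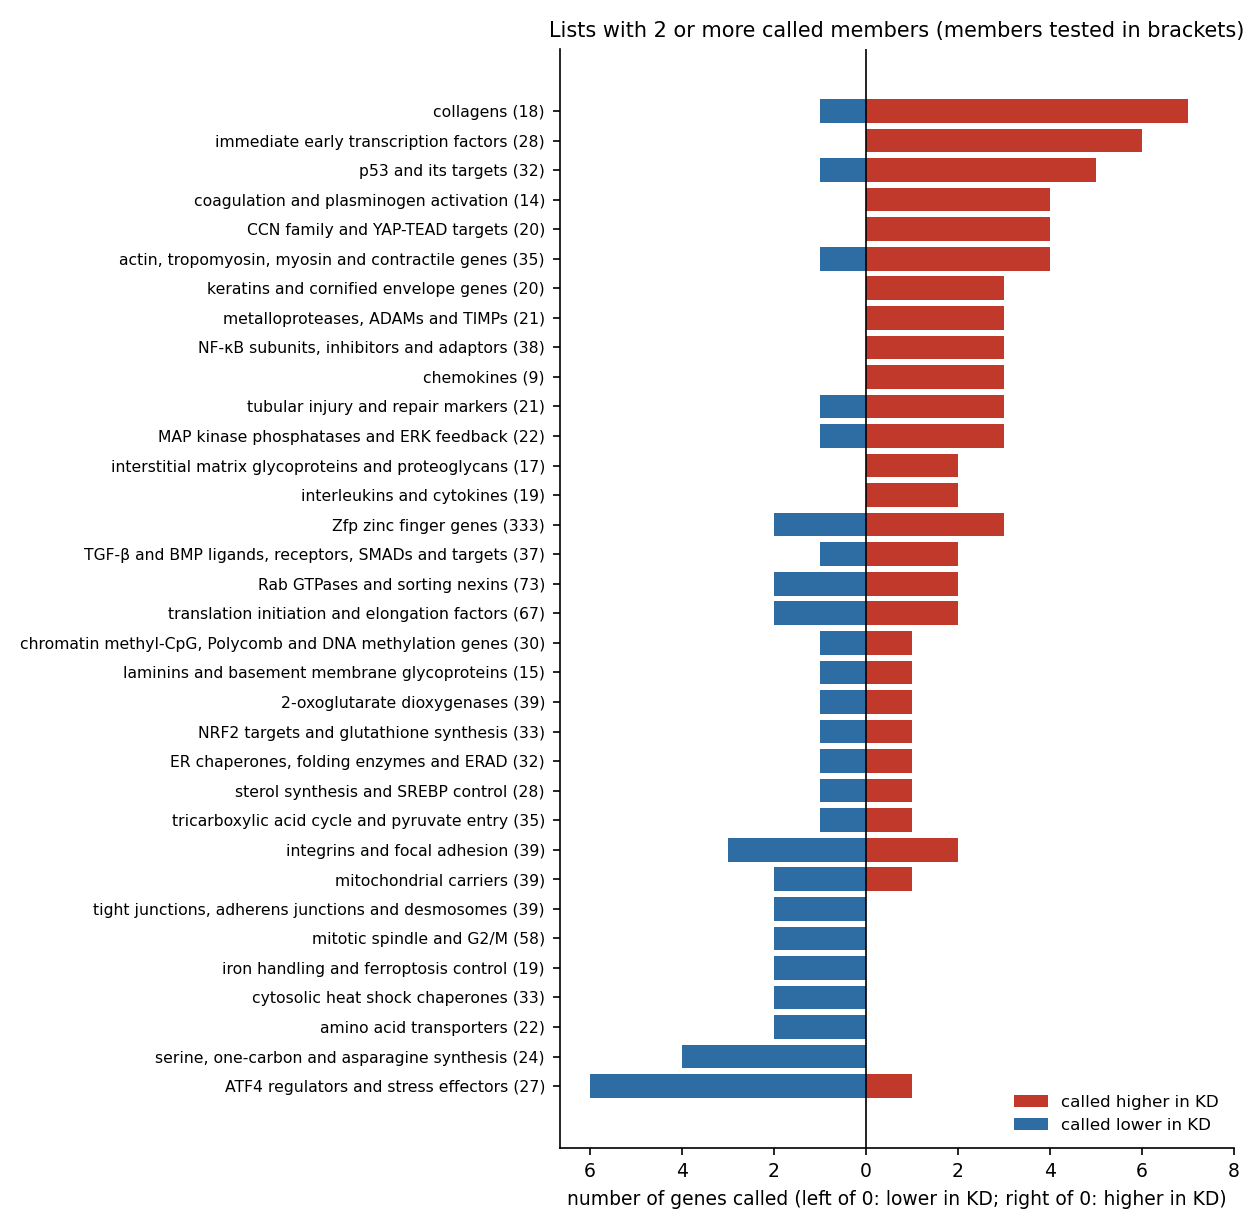
Bars give, for each list of genes with 2 or more called members, how many were called higher (red, right of 0) and lower (blue, left of 0) in KD, with the number tested in brackets. Collagens (7 higher, 1 lower) and immediate early factors (6 higher) lead at the top, and serine synthesis (4 lower) and ATF4 effectors (6 lower, 1 higher) stand at the bottom.

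In central metabolism and among the known sensors of fumarate between 0 and 2 genes of a list were called. The share called was 5.71% in the tricarboxylic acid cycle list, 4.35% in glycolysis, 3.45% in fatty acid oxidation, 1.23% in the respiratory chain, 6.06% among NRF2 targets and 5.13% among dioxygenases, against 3.66% of all tested genes. Fh1 aside, 35 genes of the tricarboxylic acid cycle and of pyruvate entry were tested, and Acly, which makes cytosolic acetyl-CoA, rose by 0.11 on the log2 scale (adjusted p = 0.0399). Mpc1, a subunit of the mitochondrial pyruvate carrier, had 43.8, 45.9 and 44.0 CPM in KD, against 57.8, 54.3 and 46.4 CPM in NC (log2 change -0.25, SE 0.063, adjusted p = 0.0466). Neither call held in 5 of 6 fits without 1 library, those without NC replicate 1 among them, where the log2 changes were 0.11 for Acly (adjusted p = 0.0646) and -0.18 for Mpc1 (adjusted p = 0.101). Of 81 nuclear-encoded respiratory chain subunits only Ndufv2 was called (log2 change -0.23, adjusted p = 0.0407), of 23 glycolytic genes only Gpi1 (log2 change -0.18, adjusted p = 0.00741), and of 29 genes of fatty acid oxidation only Cpt1a, the entry enzyme (log2 change -0.17, adjusted p = 0.0107). Of 33 NRF2 targets and glutathione genes Abcc4, an export pump for organic anions, had 431, 444 and 432 CPM in KD, against 359.5, 363 and 363 CPM in NC (log2 change 0.27, SE 0.024, adjusted p = 2.31e-05). Prdx6, a peroxiredoxin, fell by 0.14 on the log2 scale (adjusted p = 0.00643). Of 26 HIF subunits and hypoxia targets 0 were called by edgeR (5 at an unadjusted p under 0.05), and 0 to 2 were higher over the 12 alternative settings. Vegfa had a log2 change of -0.08 (adjusted p = 0.316), and Slc2a1, the glucose carrier GLUT1, one of 0.11 (adjusted p = 0.109). Of 39 genes of 2-oxoglutarate dioxygenases Alkbh4 rose by 0.27 (adjusted p = 0.0436) and Phf2, a histone demethylase, fell by 0.14 (adjusted p = 0.0297). Of the calls in these lists, fits without 1 library lost Alkbh4 in 5 (adjusted p up to 0.141), Phf2 in 4 (adjusted p up to 0.133), Ndufv2 in 4 (adjusted p up to 0.145), Gpi1 in 1 (adjusted p up to 0.0512) and Cpt1a in 2 (adjusted p up to 0.0697). Leaving out NC replicate 1 gave 0.23 for Alkbh4 (adjusted p = 0.133) as the log2 change. Txnip, an α-arrestin that restrains glucose uptake and follows glycolytic flux, had 38.6, 38.1 and 37.2 CPM in KD, against 25.2, 24.2 and 27.3 CPM in NC (log2 change 0.57, SE 0.049, adjusted p = 1.48e-05). Its relative Arrdc4, singled out after its values were seen, had 16.6, 16.7 and 17.4 CPM in KD, against 12.6, 12.3 and 12.9 CPM in NC (log2 change 0.43, SE 0.083, adjusted p = 0.0109), and in both genes the groups were clearly apart.

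Stress, survival and division genes gave a mixed picture. Of 32 p53 genes and targets 5 rose and 1 fell (18.8% called). Gadd45b, a stress sensor upstream of p38 that NF-κB also induces, had 254, 249.7 and 251 CPM in KD, against 189, 193 and 193 CPM in NC (log2 change 0.39, SE 0.027, adjusted p = 3.82e-06). Gadd45g had a log2 change of 0.34 (adjusted p = 0.00252), the kinase Plk2 one of 0.26 (adjusted p = 0.00199). Cdkn1a, the cell cycle inhibitor p21, had 477, 478 and 458 CPM in KD, against 404, 401 and 439 CPM in NC (log2 change 0.18, SE 0.033, adjusted p = 0.00741). Tigar, a phosphatase that lowers glycolysis, fell by 0.26 on the log2 scale (adjusted p = 0.00506). Of 51 replication genes 1 was called (1.96%, against 3.66% of all tested genes), Rrm1, the large subunit of ribonucleotide reductase. Rrm1 had 237, 236 and 237 CPM in KD, against 291, 297 and 293 CPM in NC (log2 change -0.31, SE 0.026, adjusted p = 1.31e-05). Of 58 genes of the spindle and of G2/M, 2 fell, Tpx2 and Sgo2a (3.45% called), and 6 of the 58 had a log2 change above 0 (median -0.075). Such a lean was not particular to them. A log2 change above 0 was found in 7 of 53 splicing regulators and 17 of 84 cytosolic ribosomal proteins. Among proteasome subunits it was found in 35 of 45. Sgo2a had 27.5, 28.9 and 30.9 CPM in KD, against 44.9, 33.6 and 34.0 CPM in NC, with NC replicate 1 far above the others, and lost its call without that library (log2 change -0.22, adjusted p = 0.0637). Among 33 cytosolic chaperones Hspa1b, whose reads cannot be told with certainty from those of Hspa1a, fell by 0.32 (adjusted p = 0.00315). H1f2, a linker histone with near-identical paralogs, had 12.2, 11.5 and 13.4 CPM in KD, against 7.504, 7.495 and 7.92 CPM in NC (log2 change 0.70, SE 0.11, adjusted p = 0.00236). It was the 1 called of 13 histone genes (7.69%). The RNA-binding proteins Pcbp2 and Pcbp1, which also carry iron, both fell. Pcbp2 had 441, 428 and 445 CPM in KD, against 578, 562 and 555 CPM in NC (log2 change -0.37, SE 0.031, adjusted p = 1.48e-05). Pcbp1 had 303, 306 and 329.5 CPM in KD, against 366, 351 and 356 CPM in NC (log2 change -0.19, SE 0.046, adjusted p = 0.0335). The call of Pcbp1 was lost in 4 of 6 fits without 1 library, and that of Pcbp2 in 0 of 6.

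Of 61 lists of genes by function 15 had no call by edgeR, among them 1 list with 0 members in the tables, while 12 had 10 or more tested members. The counts at an unadjusted p are to be read against the 17.3% of all tested genes that had one under 0.05. Of 84 cytosolic ribosomal proteins 6 had an unadjusted p under 0.05, of 45 proteasome subunits 8, of 63 lysosomal and autophagy genes 6 and of 53 splicing regulators 9. The same count was 4 of 26 Wnt genes, 3 of 21 Notch genes and 5 of 20 circadian clock genes. Of 333 zinc finger genes named Zfp, 3 rose and 2 fell (1.5% called), under the 3.66% of all tested genes.

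Increases outside these groups included Mbd6 and Tanc2. Mbd6, a methyl-CpG-binding domain protein, had 88.8, 87.0 and 90.2 CPM in KD, against 59.6, 55.8 and 59.7 CPM in NC (log2 change 0.60, SE 0.054, adjusted p = 1.99e-05). Tanc2, a synaptic scaffold protein, had 6.51, 7.04 and 6.06 CPM in KD, against 3.98, 4.56 and 4.72 CPM in NC (log2 change 0.56, SE 0.10, adjusted p = 0.00675). Among the abundant transcripts Anxa1, an anti-inflammatory annexin, had 2151, 2149 and 2124 CPM in KD, against 1803, 1897 and 1907 CPM in NC (log2 change 0.20, SE 0.029, adjusted p = 0.00205). Ly6a, the surface antigen Sca-1, had 481, 494 and 469 CPM in KD, against 396, 425 and 422 CPM in NC (log2 change 0.22, SE 0.038, adjusted p = 0.00557). Eef2, the elongation factor, had 6238, 6168 and 6189 CPM in KD, against 6666, 6596 and 7031 CPM in NC (log2 change -0.13, SE 0.029, adjusted p = 0.0247), a call lost in 4 of 6 fits without 1 library.

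Long mRNAs were frequent among the genes that rose, which was noticed in the data and is given as a description. Of the 168 called higher with a coding transcript in GENCODE M21, 17 (10.1%) had one longer than 10000 bases, against 4 of 255 called lower (1.57%) and 272 of 11451 tested genes (2.38%). Kmt2d, a histone H3 methyltransferase, had 143, 139.7 and 142 CPM in KD, against 106, 105 and 111 CPM in NC (log2 change 0.40, SE 0.03, adjusted p = 6.15e-06). Htt, huntingtin, had 119, 118 and 112 CPM in KD, against 99.7, 96.5 and 98.3 CPM in NC (log2 change 0.25, SE 0.034, adjusted p = 0.00113). In both genes the lowest KD library stood above the highest NC library, NC replicate 1 included. Median mRNA lengths were 3804 bases for genes called higher, 3566 for those called lower and 3160 for all tested genes. The median log2 change differed little by length, at -0.004 in the shortest quartile of genes and -0.02 in the longest, and the part of RNA integrity in the calls was not tested.

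The 12 largest decreases by the rule for named genes, Fh1 aside, share no list. Rnf44, a RING-type protein, had 104, 105 and 104 CPM in KD, against 143, 143 and 146 CPM in NC (log2 change -0.47, SE 0.031, adjusted p = 3.82e-06). Entpd5, a nucleotidase of the endoplasmic reticulum, had 75.2, 75.2 and 74.7 CPM in KD, against 102, 105 and 101 CPM in NC (log2 change -0.45, SE 0.037, adjusted p = 1.19e-05). Prkar2a, the regulatory subunit RIIα of protein kinase A, had 99.1, 103 and 108 CPM in KD, against 144, 139 and 135 CPM in NC (log2 change -0.43, SE 0.038, adjusted p = 1.88e-05). In these 3 genes the spread within a group was small beside the gap. Gja1, the gap junction protein connexin 43, had 166, 159 and 165 CPM in KD, against 252, 215 and 214 CPM in NC (log2 change -0.47, SE 0.056, adjusted p = 0.000291), and without NC replicate 1 its log2 change was -0.39 (adjusted p = 3.22e-06). Sh3yl1, a phosphoinositide-binding adaptor, had 15.1, 15.7 and 13.8 CPM in KD, against 21.95, 21.7 and 22.3 CPM in NC (log2 change -0.57, SE 0.074, adjusted p = 0.000646). Dmpk, a protein kinase, had 17.8, 17.98 and 18.99 CPM in KD, against 25.1, 26.2 and 25.2 CPM in NC (log2 change -0.48, SE 0.077, adjusted p = 0.00303). NC replicate 1 was the highest NC library in Gja1, not in Sh3yl1 or Dmpk. Seh1l, of the nuclear pore and the GATOR2 complex, had 72.6, 76.7 and 83.1 CPM in KD, against 128, 103 and 91.5 CPM in NC (log2 change -0.47, SE 0.093, adjusted p = 0.0109), and without NC replicate 1 its log2 change was -0.33 (adjusted p = 0.00207). The others were scarce, with calls that some fits without 1 library lost: C1qtnf1 in 3 (adjusted p up to 0.0948), Kif12 in 5 (adjusted p up to 0.156), Prkch in 5 (adjusted p up to 0.165), Mxd1 in 3 (adjusted p up to 0.08) and Sod3 in 5 (adjusted p up to 0.0971). The fit without NC replicate 1 gave log2 changes of -0.46 for Kif12 (adjusted p = 0.105), -0.40 for Prkch (adjusted p = 0.114) and -0.35 for Sod3 (adjusted p = 0.0541). With all libraries the log2 changes were -0.63 for C1qtnf1, a secreted C1q-like protein, -0.52 for the kinesin Kif12, -0.52 for the kinase Prkch, -0.47 for Mxd1, a partner of MAX, and -0.46 for the extracellular superoxide dismutase Sod3.

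Of these 12 decreases 4 carry a short word in the 3' UTR that earlier work on these data had found to be frequent in genes lower in KD. The word was thus picked in these genes, and the shares below describe it and support nothing. Small interfering RNAs, as background, can lower transcripts whose 3' UTR pairs with bases 2 to 8 of the guide strand. The labels do not name the reagent, and whether that applies here was not tested. The sites are shown because they are the stretches against which a guide could be compared, as 30 bases of GRCm38 around the first match, the word in capitals: Sh3yl1 at chr12:30960025-30960054 (plus strand), Prkch at chr12:73777436-73777465 (plus strand), Mxd1 at chr6:86649138-86649167 (minus strand) and Entpd5 at chr12:84375243-84375272 (minus strand).
Sh3yl1: cacaaaaatattTCTACACagacaggattc
Prkch: tctgtggagcacTCTACACtcttctttaag
Mxd1: agggaacaaaccTCTACACatctttattcc
Entpd5: agactactgctcTCTACACagctggtctct
TCTACAC was in the longest annotated 3' UTR of 82 of 255 genes called lower (32.2%), of 9 of 168 called higher (5.36%) and of 991 of 11426 tested genes (8.67%). Median 3' UTR lengths of these sets were 1630, 1283.5 and 1365 bases. Among genes with 0 matches 1.66% were called lower and 1.52% higher. Among those with 1 match 8.31% were called lower and 0.984% higher, and with 2 or more matches 7.90% (6 of 76 genes) and 0%. In the quartile with the shortest 3' UTRs 17.5% of 40 genes with a match were called lower, against 0.958% of 2817 without. In the quartile with the longest, the shares were 6.303% of 476 with 1 match and 1.85% of 2325 without. With genes that hold the word or lack an annotated 3' UTR left out, 332 calls remained, 159 higher and 173 lower.

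**Figure D4:**
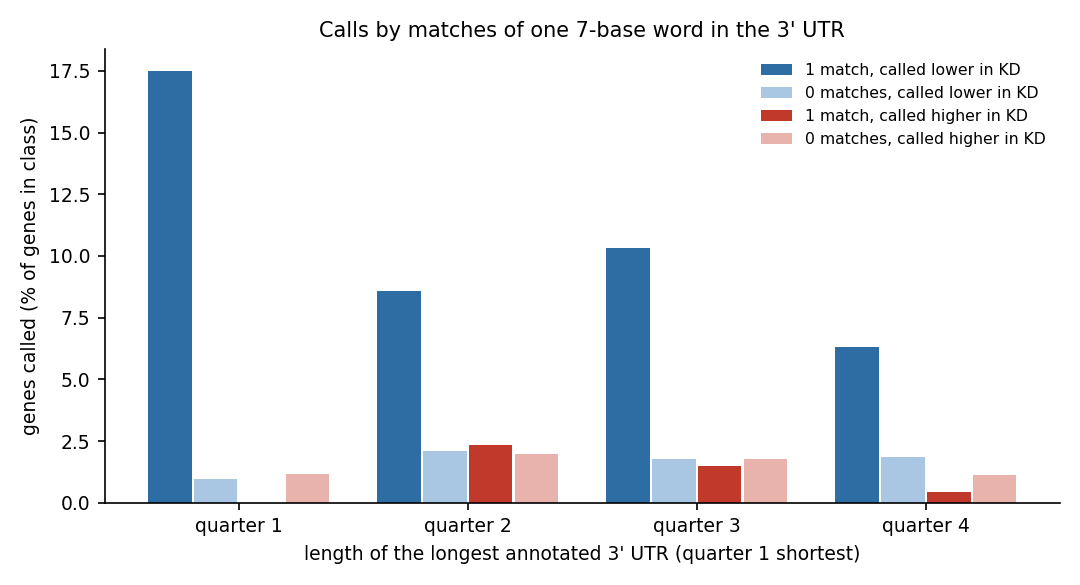
Bars give the percentage of genes called lower (blue) or higher (red) in KD by quartile of 3' UTR length (x axis), dark for genes with 1 match of the 7-base word and pale for genes with 0. Genes with a match were called lower more often in each quartile, at 17.5, 8.59, 10.3 and 6.303% by rising length, where the pale blue bars stand at 0.958, 2.09, 1.79 and 1.85%.

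At the level of single transcripts 50 of 36554 tested RefSeq transcripts (0.137%) were called, 23 higher and 27 lower, of which 41 are curated (NM) and 9 predicted (XM) models. The 50 include 40 that belong to a called gene, and 22 of them come from genes with 1 tested transcript. Of the 429 called genes 148 had 1 tested transcript and 279 had 2 or more, and in 269 of the 279 the main transcript changed in the direction of the gene. With only the 6 basal libraries fitted 0 transcripts were called by edgeR (1784 at an unadjusted p under 0.05), and DESeq2 called 655 over all 12, so this count depends on the fit. NM_001199186 of the choline transporter gene Slc44a2, 1 of several models, had 430, 419 and 484 counts in KD, against 645, 573 and 659 in NC. Its share of the TPM of the gene was 6.80, 6.64 and 7.56% in KD, against 10.4, 8.78 and 9.52% in NC, and the usage of this gene was not called. Rassf1, a scaffold of the Hippo pathway, had 882, 812 and 847 counts in KD, against 604, 596 and 637 in NC for NM_019713, which carried 98.2% of its TPM in KD and 96.4% in NC. Cnpy3, a chaperone of Toll-like receptors, had 435, 422 and 482 counts in KD, against 620, 625 and 620 in NC for NM_028065. The calls of the transcripts of Slc44a2 and Cnpy3 were each lost in 5 of 6 fits without 1 library. Without NC replicate 1 the adjusted p was 0.104 for that of Slc44a2 and 0.0757 for that of Cnpy3.

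Of the 50 called transcripts 8 were at 0 in all 3 libraries of a group, 5 in KD and 3 in NC, so their folds are bounds against a floor of 3 counts per library. NM_013814 of Galnt1, a transferase that starts O-glycans, had 0, 0 and 0 counts in KD, against 39, 76 and 106 in NC, at least 24.5-fold lower. It made up 3.62% of the TPM of the gene in NC, and the main model NM_001160404 had 1807, 1741 and 1780 counts in KD, against 1719, 1687 and 1618 in NC. NM_001305937 of Kctd6, an adaptor of ubiquitin ligases, had 0, 0 and 0 counts in KD, against 53, 68 and 24 in NC, at least 16.0-fold lower, with a share of 23.4% in NC. XM_006501426 of Slc35a3, a carrier of UDP-N-acetylglucosamine, had 0, 0 and 0 counts in KD, against 67, 24 and 63 in NC, at least 17.1-fold lower. Its call was lost in 4 of 6 fits without 1 library, with an adjusted p of 0.051 without NC replicate 1, and that of Kctd6 in 3 of 6. In the other direction XM_036157404 of Mideas had 25, 28 and 13 counts in KD, against 0, 0 and 0 in NC, at least 7.18-fold higher. XM_011241264 of Sema4f had 12, 26 and 25 counts in KD, against 0, 0 and 0 in NC, at least 6.82-fold higher. Estimated counts of near-identical models can pass from one to another, and a model can be listed at 0 while its gene is expressed.

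Transcript usage asks whether the models of a gene changed by different amounts. It was called for 21 of 7438 genes with 2 or more tested models (0.282%). Of all 7438, 279 were among the 429 genes called for their level, and 0 of the 21 were, too few genes to tell the shares apart. Of these 21, 14 hold a transcript at 0 in every library of one group and present in every library of the other, as do 195 of all 7438. The other 7 are Paics, Lif, Arhgef28, Rufy2, Map3k21, Rgs20 and Wipi2. Paics, an enzyme of purine synthesis, was not called as a gene (log2 change -0.03, adjusted p = 0.754). Of the TPM of the gene, the model NM_001356972 carried 29.8, 35.4 and 52.0% in KD, against 57.9, 64.5 and 62.2% in NC. NM_001356973 carried 43.7, 38.5 and 24.2% in KD, against 20.4, 18.2 and 15.5% in NC. The groups did not overlap in either share, although KD replicate 3 lay nearest to NC (usage adjusted p = 1.04e-05). Lif, a cytokine of the interleukin-6 family, shifted between NM_008501, with 18.9, 24.8 and 19.7% in KD, against 25.9, 39.5 and 33.3% in NC, and XM_006514542, with 57.3, 54.2 and 56.3% in KD, against 53.8, 44.5 and 44.4% in NC (usage adjusted p = 0.014). Map3k21, a mixed-lineage kinase, had 58.9, 61.3 and 53.9% in KD, against 48.7, 50.6 and 50.4% in NC for XM_006530971 and the rest in NM_145608 (usage adjusted p = 0.0295). Rufy2 had 39.0, 54.3 and 45.2% in KD, against 24.1, 17.96 and 25.4% in NC for XM_006514087 (usage adjusted p = 0.0295). With transcripts that had at least 1 count in each basal library, a setting chosen after the data were seen, 5 genes were called, of which 2, Paics and Lif, are among the 21.

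**Figure D5:**
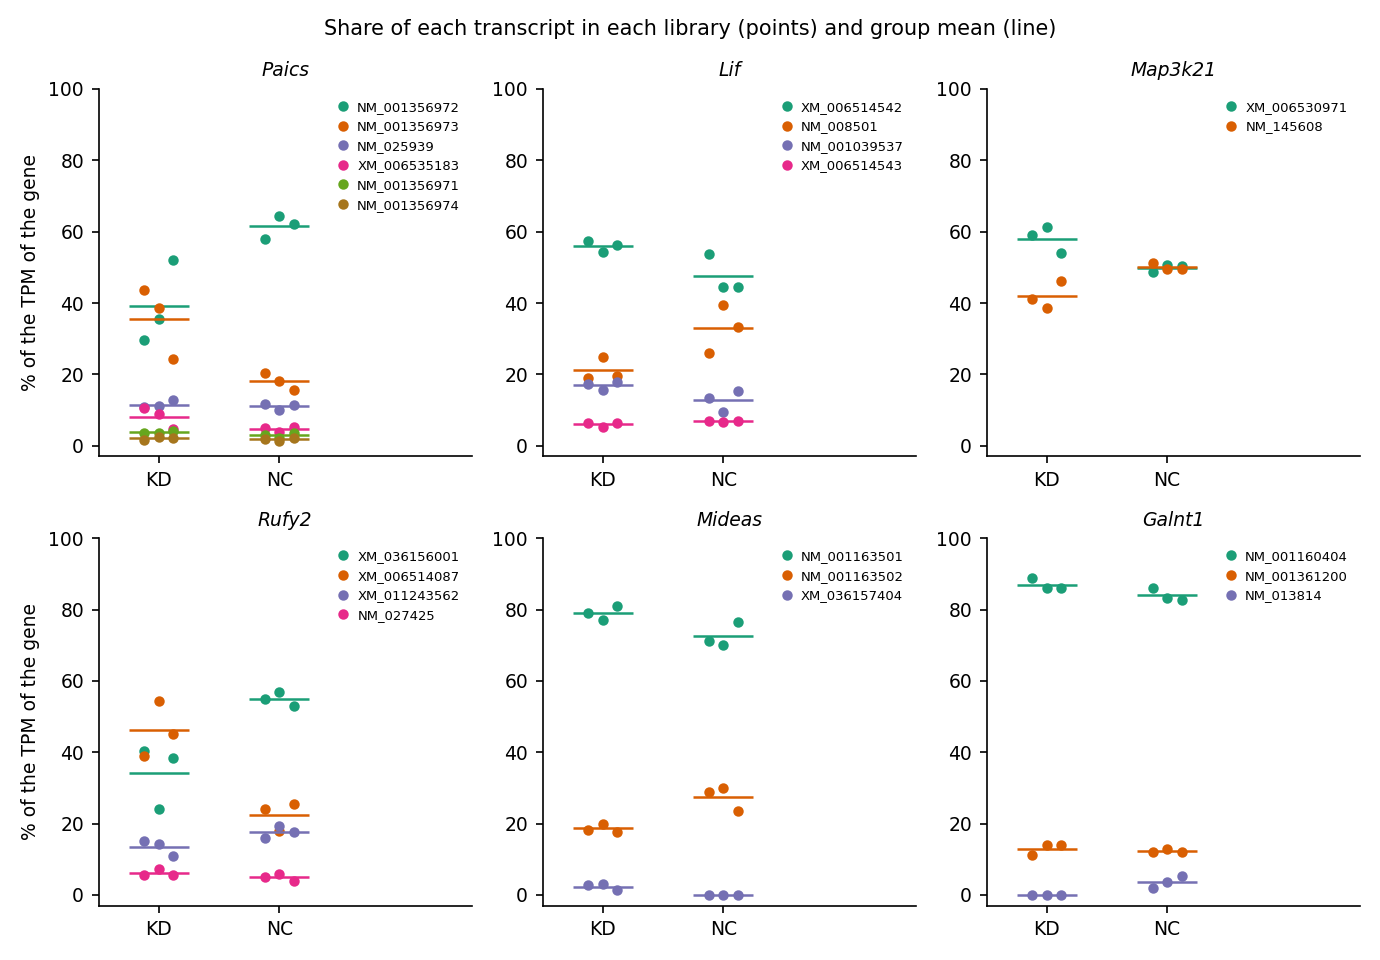
Points give the share (% of the TPM of the gene, y axis) of each tested RefSeq transcript of 6 genes called for usage in 3 KD (left) and 3 NC (right) libraries, with lines at group means. In Paics NM_001356972 averaged 39.1% in KD and 61.5% in NC, and in Galnt1 NM_013814 lies at 0 in KD.

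The same contrast in cells given TGF-β1 compares the other 6 libraries and shares no control with the basal one. Both contrasts come from 1 fit of all 12 libraries with a shared estimate of the spread of each gene, so their calls are not independent. Over all 11707 tested genes 635 were called higher and 705 lower with TGF-β1. Of 169 genes higher in basal cells 104 were also called higher there (61.5% of the basal and 16.4% of the 635 called higher with TGF-β1), and 1 was called lower. Of 260 genes lower in basal cells 172 were also called lower there (66.2% of the basal and 24.4% of 705), and 9 were called higher. The difference between the settings was called for 104 of 11707 genes (0.888%), 19 of them among the 169 and 21 among the 260. The basal change is part of that difference, so genes called in basal cells are favoured in these counts. F3, with log2 changes of 0.58 with TGF-β1 and 0.59 in basal cells, is an example where the difference was not called, as is Rnf44, at -0.55 with TGF-β1 and -0.47 in basal cells. Chac1, at 0.27 with TGF-β1 and -0.30 in basal cells (interaction adjusted p = 0.000845), is one where it was. Fh1 itself fell further with TGF-β1 (log2 change -1.81), and whether the depth of silencing or the cytokine goes with such differences cannot be told apart.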

How the data were processed

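RNA of mTECs was sequenced in 12 libraries, 3 in each of 4 groups (KD and NC, each with and without TGF-β1), of which 6 are basal. Per the file headers, the authors deposited 2 tables, basal and TGF-β1, with an estimated count and a TPM value per RefSeq transcript and library. HISAT2, Bowtie2, RSEM 1.3.1 and DESeq2 1.34.0 are named per the submitters' processing notes, which give no roles. The build they name is a human one, although the transcripts are those of mouse, so no coordinate was taken from the tables. The 24 other per-sample columns were not used.

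Estimated counts were summed per Entrez gene over genes in both tables, rounded to whole numbers and fitted with edgeR 4.0.16 (R 4.3.3; filterByExpr, TMM factors of 0.978 to 1.02, quasi-likelihood F test, 1 coefficient per group, 8 residual degrees of freedom). Adjusted p-values are Benjamini-Hochberg over all tested features, and a call is an adjusted p under 0.05. Transcripts were fitted in the same way, and usage with diffSpliceDGE, which compares each transcript of a gene with the others. The gene, transcript and usage fits were also run on simulated data with the same spread in all libraries. In the real data the NC libraries differed more from each other than the KD libraries did. The simulation left that out, so it does not vouch for the calls. Tables were drawn up with pandas 2.3.3 and figures with matplotlib 3.10.9. Alternatives were DESeq2 1.42.0, limma 3.58.1 on log2(TPM + 1), other scaling and filters, a replicate block and leaving out libraries. Sequences and lengths come from RefSeq promoters (GRCm38.p6) and GENCODE M21 (GRCm38).

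Genes are named by rule: the 12 strongest called increases and 12 strongest decreases that reach 5 CPM on average in KD or NC without overlap, 8 abundant called genes, and from each list its 4 called members of lowest p (1 member if it had no call). Named transcripts are the 6 largest increases and 6 largest decreases that reach 2 CPM on average, and 10 genes were named for usage. The members of the comparison and the lists were chosen with earlier results of these data known, and other genes in the text were singled out after their values were seen. A few genes that the rule names are not reported here, though they stay in the counts. Counting error is part of the spread given.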

Additional observations from a re-analysis of the deposited data

Results flagged for a closer look

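For 19 of the genes named here the change on silencing differed between cells given TGF-β1 and basal cells by an interaction term of the edgeR fit with an adjusted p under 0.05. Each value below is the log2 change with TGF-β1 minus that without. The 19 were picked among genes called in basal cells, and the basal change is subtracted in each value. A smaller change with TGF-β1 is thus favoured by the choice, and how many genes lean that way is no result. The libraries of the settings stand in separate deposited tables, and Fh1 itself was lowered further with TGF-β1 (difference -0.98), so depth of silencing, cytokine and table cannot be told apart.

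Genes higher in basal KD cells with a smaller or absent increase with TGF-β1 were Egr1 (-0.84), H1f2 (-0.75), Tanc2 (-0.67), Cxcl1 (-0.64), Col4a3 (-0.45), Txnip (-0.44), Tnfaip3 (-0.24), Adamts1 (-0.23) and Gadd45b (-0.2). Egr1 shows it most plainly, with log2 changes of -0.0049 with TGF-β1 and 0.83 without. Mbd6 (0.44) and Abcc4 (0.19) rose more with TGF-β1.

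Among the genes of amino acid supply and of the ATF4 response that were called lower in basal KD cells, 7 differed between the settings by this term, and these 7 were not called lower with TGF-β1. Gdf15 and Cebpg were called lower in both settings, and the difference was not called. The differences of the 7 were 0.59 for Nupr1, 0.57 for Chac1, 0.53 for Slc6a9, 0.36 for Slc7a5, 0.34 for Asns, 0.25 for Shmt2 and 0.2 for Psat1. Nupr1 changed by 0.33 with TGF-β1 and by -0.26 without, and Slc7a5 by 0.22 with TGF-β1 and by -0.14 without.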

How the results depend on the processing

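Of the 126 called genes named by rule, each had the same sign in all 12 alternatives, 59 kept the call in each of them and 72 in each fit without 1 library. Of 1896 values of a named gene or transcript under an alternative, 372 lost a call and 14 gained one. Size factors of DESeq2 in edgeR gave 413 genes, 47.0% of them higher, against 39.4% in the fit as reported, DESeq2 gave 322 (46.6%), limma on log2(TPM + 1) 327 (53.8%) and no low-count filter 390. With the genes that hold the 3' UTR word or lack an annotated 3' UTR left out, a choice made after seeing the data, 47.9% of 332 were higher. The adjusted p-values were kept without a new fit. Since the word was picked for being frequent in genes lower in KD, a rise of this share follows from the choice and is no check of the processing. With only the 6 basal libraries there were 151 genes (51.0% higher), 0 transcripts by edgeR (1784 at an unadjusted p under 0.05) and 55 genes for usage. DESeq2 called 655 transcripts, limma's diffSplice 73 genes for usage, and the requirement of 1 count in each basal library 5. Without 1 library the range was 212 to 641 for genes, 38 to 147 for the interaction, 22 to 77 for transcripts and 35 to 47 for usage. The cause of these shifts was not tested, beyond the loss of samples. Col1a1, at a few counts and not called, ranged from -0.2172 to 0.3087 and changed sign without KD replicate 3 (-0.2172) and without NC replicate 1 (-0.1793). Deviations of same-numbered KD and NC libraries had correlations of -0.037, 0.07 and -0.097, and those of different numbers lay between -0.083 and 0.114. With so few libraries these values cannot tell whether the numbers pair them. With the replicate block the counts were 327 genes, 54 for the interaction, 14 transcripts and 12 genes for usage. Under 1% of genes under 5 TPM were called, and what part depth had in that was not tested.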
